A study of Mus musculus with 16 samples.

Results

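The genes described here encode the proteins of the mouse cytosolic ribosome. They were taken as every probe set whose platform annotation gives a single gene symbol that starts with Rpl or Rps and a digit, or is Rpsa, Rplp0, Rplp1 or Rplp2, leaving out the Rps6k kinases and Rps19bp1. The rule found 106 of 45037 probe sets, for 50 of 18193 genes. Of these, 96 probe sets for 48 genes were bright enough to be tested, 22 genes of the small subunit and 26 of the large one. The 10 probe sets not tested had group means of at most 11.12 intensity units, and because of them Rps16 and the pseudogene Rps15a-ps6 have no tested probe set. Every tested gene was bright enough on at least 1 array with amanitin, while 3 tested probe sets were bright enough on untreated arrays alone. Rpl14, Rpl3l and Rpl12 would not have been tested without their untreated arrays. With amanitin, Rpl14 was bright enough only on BCB array 2 (18) and Rpl3l only on BCB array 4 (13). Rpl12 was so only on BBB arrays 2 and 4 (15.1 and 19.7). The falls of these genes are therefore not independent of the filter. Many ribosomal protein genes have processed pseudogenes, so a further 110 probe sets list a ribosomal protein gene together with other symbols. They cover 31 more genes of the family and are described apart, because their signal cannot be given to 1 gene.

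RNA from two-cell mouse embryos was hybridised to 16 arrays with a single colour, 4 in each of 4 groups. BCB embryos hold a C3H maternal pronucleus beside a B6 paternal pronucleus in B6 ooplasm, and BBB embryos are B6 in the maternal pronucleus, the paternal pronucleus and the ooplasm. The groups were BCB embryos with α-amanitin, untreated BCB embryos, BBB embryos with α-amanitin and untreated BBB embryos. α-Amanitin, which the labels write as α-amantin, is a mushroom toxin that blocks RNA polymerase II. The labels give neither its dose and timing, nor the number of embryos per array, nor the origin of the replicates, so the p-values measure the spread between these samples, which may be technical. Each array holds the RNA of whole embryos, so fewer embryos and less RNA per embryo cannot be told apart.

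A ribosome is built from ribosomal RNA, made by RNA polymerases I and III, and from about as many copies of each ribosomal protein, whose mRNAs are made by RNA polymerase II. A mouse zygote starts with ribosomes and mRNAs stored by the oocyte, and the two-cell stage is when its own genome becomes broadly active and many stored mRNAs are lost. Most ribosomal protein mRNAs are TOP mRNAs, which begin with a cytosine and a run of pyrimidines at the start of the transcript, the feature through which mTOR and the RNA-binding protein Larp1 govern their translation.

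The two-cell label was checked against marker genes. The 8 of 14 listed two-cell genes that the annotation gives alone summed to between 1184 and 1590 intensity units in BCB embryos with amanitin, against 14060 to 14900 in untreated BCB embryos, and to between 1224 and 1708 in BBB embryos with amanitin, against 13870 to 15300 in untreated BBB embryos. The 11 of 13 oocyte markers summed to 32620 to 36250 with amanitin, against 17010 to 19170 untreated, in BCB embryos, and to 35070 to 38580 with amanitin, against 16120 to 20200 untreated, in BBB embryos. Sperm markers (8 of 8) summed to between 58.6 and 164.7 over all groups, and blood markers (3 of 4) to between 5.1 and 50.7. The 13 of 14 cumulus and granulosa cell markers summed to 433.2 to 485.2 with amanitin, against 2344 to 2744 untreated, in BCB embryos and to 382.9 to 454.4, against 2098 to 2487, in BBB embryos. Nearly all of the untreated sum came from Amhr2, a hormone receptor gene, at a mean of 2410 in BCB and 2086 in BBB. The part of these markers in the results below was not tested.

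The arrays also carry added control transcripts. The deposited values show arrays scaled to the same trimmed mean, which is 150 without the highest and lowest 2% of values. The labels do not name the method. On that scale the poly-A controls, added to the RNA before labelling, averaged 9.69 ± 0.30 (log2 units, SD, n = 4) in BCB embryos with amanitin, against 7.96 ± 0.24 untreated. In BBB embryos they averaged 9.57 ± 0.14, against 7.85 ± 0.16. The hybridization controls averaged 10.57 ± 0.13, against 9.77 ± 0.02, in BCB embryos and 10.44 ± 0.16, against 9.90 ± 0.15, in BBB embryos. The probe sets of 18S ribosomal RNA averaged 12.57 ± 0.15, against 10.95 ± 0.19, in BCB and 12.44 ± 0.17, against 11.19 ± 0.13, in BBB embryos. All of these means were higher on every array with amanitin than on every untreated array, and their part in the changes below was not tested. A change is therefore relative to the scale of the array.

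The first comparison asks which ribosomal protein transcripts depend on transcription in embryos with a C3H maternal pronucleus. With amanitin, nearly all of the family fell, and the small subunit gene Rps26 fell most. In BCB embryos 44 of 48 genes were lower, against 31.9% of all genes tested, and 2 were higher, against 39.9% (limma, adjusted p under 0.05). The median log2 change, taken throughout on the log2(intensity + 16) scale, was −2.44 for the ribosomal protein genes and 0.17 for all 15274 genes tested. The mean intensity kept with amanitin ranged from 3.31% for Rps26 to 139% for Rpl39, with a median of 14.4%. Rpl39 was read from a dim probe set, at a mean of 106.3 with amanitin and 76.55 untreated. A brighter probe set that lists it beside another symbol fell, as described below. On that scale, at least 2-fold falls were made by 40 of the 48 genes, against 21.1% of all genes, and at least 8-fold falls by 16, against 4.71%. The 4 arrays with amanitin all lay below the 4 untreated arrays for 44 genes, against 29.7% of all genes, and above them for 1, against 35.6%.

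In BBB embryos the same question gave 45 of 48 genes lower, against 33.1% of all genes, and 0 higher, against 37.1% (limma, adjusted p under 0.05). An unadjusted p under 0.05 was reached by 45 of 48, against 72.3% of all genes. The median log2 change was −2.27, against 0.11 for all genes, and the median share of intensity kept was 16%, from 3.58% for Rpl14, at a mean of 2.2 with amanitin and 61.5 untreated, to 116% for Rps27l. Falls of at least 2-fold were made by 39 genes, against 21.9% of all genes, and of at least 8-fold by 16, against 4.85%. For 44 genes all 4 arrays with amanitin lay below the 4 untreated arrays, against 30.7% of all genes.

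**Figure D1:**
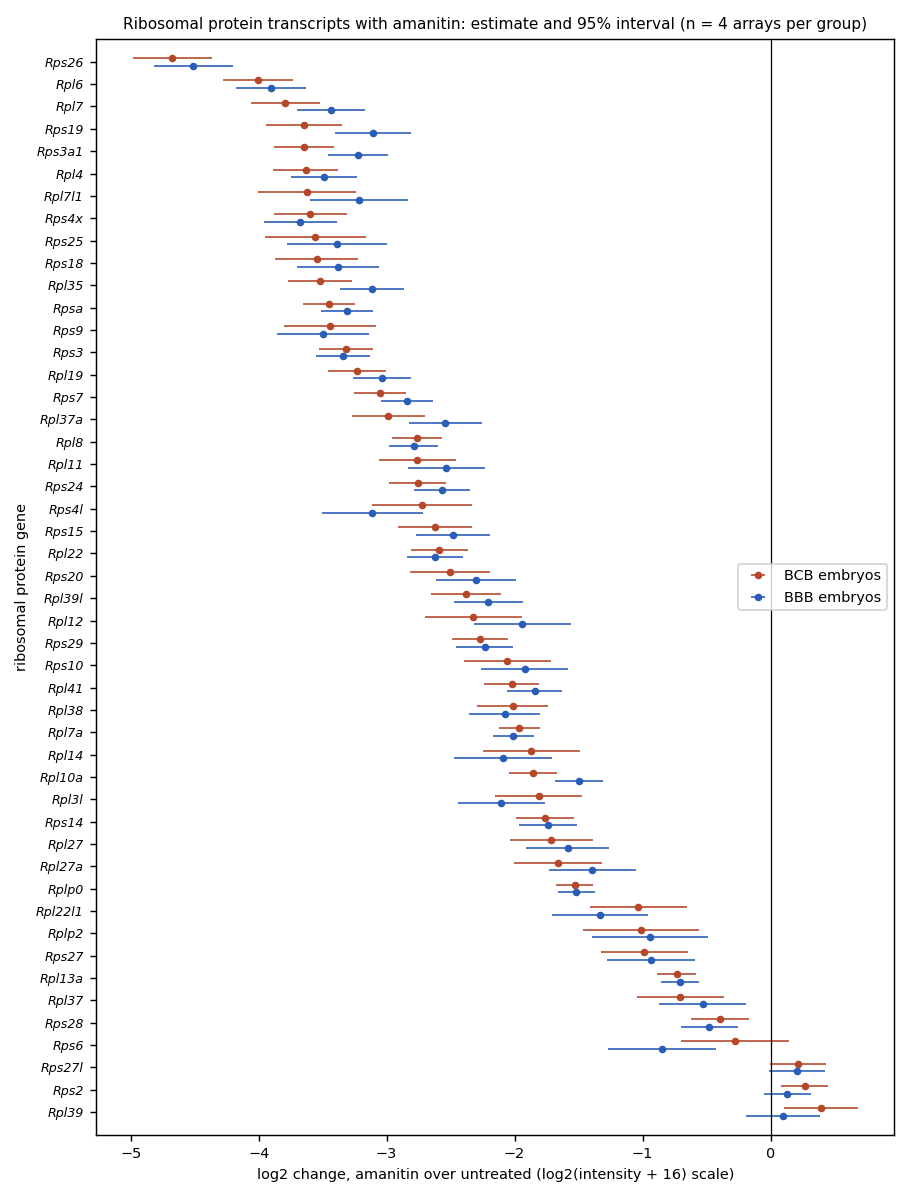
Log2 change of each tested ribosomal protein gene, amanitin over untreated, with its 95% interval from limma, in BCB (red) and BBB (blue) embryos; genes are ordered by the change in BCB. The genes form a continuous range from Rps26 (−4.68 in BCB and −4.51 in BBB) to Rps27l, Rps2 and Rpl39, the 3 genes above 0 in both kinds. Their direction depends on the scaling, and Rpl39 was read from a dim probe set.

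The intensities of the lead probe sets were summed over the 48 genes and over all 15274 genes tested. The first sum made up 0.36% ± 0.06 of the second in BCB embryos with amanitin and 1.39% ± 0.02 in untreated BCB embryos (SD, n = 4 each). The shares were 0.35% ± 0.03 in BBB embryos with amanitin and 1.34% ± 0.09 in untreated BBB embryos. The mean log2 level of the 48 genes was between 7.57 and 7.90 on the 4 BCB arrays with amanitin, against 10.004 to 10.058 on the 4 untreated ones, and between 7.63 and 7.90, against 9.89 to 10.09, on the BBB arrays. The arrays of the treatments did not overlap in either kind.

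Small subunit genes fell in 19 of 22 cases in BCB embryos, with 1 higher and a median of −2.74. They fell in 20 of 22 in BBB embryos, with a median of −2.70. Of all genes tested, 31.9% were lower and 39.9% higher in BCB embryos, and 33.1% were lower in BBB embryos. Rps26, which lies at the exit of the mRNA channel, gave 75.8, 88.9, 90.3 and 81.7 on the BCB arrays with amanitin, against 2629, 2700, 2402 and 2437 on the untreated ones. On the BBB arrays it gave 76.6, 60.6, 128.2 and 56.6 with amanitin, against 2272, 2178, 1862 and 2113 untreated. The groups were far apart in both kinds, and BBB array 3 with amanitin was the highest of the treated arrays. The log2 change was −4.68 ± 0.15 (SE) in BCB and −4.51 ± 0.15 in BBB embryos, with limma adjusted p of 7.91e-18 and 1.51e-17.

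Rpsa, the ribosomal protein that is also known as a laminin receptor precursor, gave 137.9, 130.1, 122.2 and 129.1 on the BCB arrays with amanitin, against 1531, 1615, 1576 and 1574 untreated. The BBB arrays gave 138.4, 139.7, 143.8 and 142.6 with amanitin, against 1794, 1596, 1325 and 1485 untreated. The treated arrays were close to each other in both kinds, and the untreated BBB arrays were spread more widely than the untreated BCB arrays. The changes were −3.45 ± 0.10 and −3.31 ± 0.10 (limma, adjusted p 1.04e-18 and 2.18e-18). Rps4x, the X-linked form of the small subunit protein, averaged 192 ± 29.9 with amanitin and 2490 ± 272 untreated in BCB embryos (SD, n = 4), and 186 ± 43.3 and 2544 ± 410 in BBB embryos, changes of −3.60 and −3.67.

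Rps19, the gene most often mutated in human Diamond-Blackfan anaemia, averaged 49.8 ± 10.9 with amanitin and 799 ± 30.3 untreated in BCB embryos, and 74.5 ± 18.8 and 755 ± 85.1 in BBB embryos (−3.65 and −3.11). Rps3a1 averaged 208 ± 37.4 and 2758 ± 217 in BCB, and 254 ± 30.9 and 2501 ± 121 in BBB embryos (−3.65 and −3.23). Rps3, which lies at the entry of the mRNA channel, changed by −3.32 and −3.34. Rps9, a protein that bears on decoding accuracy, changed by −3.44 and −3.50. Rps25, used by several viral internal ribosome entry sites, was dimmer, at 15.1 ± 6.4 with amanitin and 345 ± 37.9 untreated in BCB embryos (−3.56), and at 14.3 ± 8.3 and 291 ± 26.9 in BBB embryos (−3.39). Rps29, a small zinc-binding protein, averaged 1101 ± 172 with amanitin and 5328 ± 164 untreated in BCB embryos, and 1122 ± 196 and 5285 ± 329 in BBB embryos (−2.27 and −2.23).

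Large subunit genes fell in 25 of 26 cases in BCB embryos, against 31.9% of all genes, with 1 higher, against 39.9%, and a median of −2.02. They fell in 25 of 26 in BBB embryos, against 33.1% of all genes, with a median of −2.08. Rpl6 gave 205.3, 169.6, 152.9 and 154.8 on the BCB arrays with amanitin, against 2892, 3104, 2972 and 2888 untreated. It gave 175.3, 131.9, 246.1 and 147.5 on the BBB arrays with amanitin, against 2901, 2981, 2520 and 2741 untreated. The groups did not overlap. Array 3 was the highest of the treated BBB group, and array 3 of the untreated BBB group, a different array, was the lowest there. The changes were −4.00 ± 0.13 and −3.90 ± 0.13 (limma, adjusted p 1.25e-17 and 2.03e-17).

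Rpl4, whose long loop lines the tunnel that the new protein leaves by, averaged 247 ± 47.0 with amanitin and 3212 ± 141 untreated in BCB embryos, and 280 ± 59.6 and 3253 ± 79.6 in BBB embryos (−3.63 and −3.49). Rpl7 averaged 119 ± 20.2 and 1843 ± 114 in BCB, and 148 ± 21.8 and 1764 ± 310 in BBB embryos (−3.79 and −3.44). Rpl11, which with Rpl5 and the small 5S ribosomal RNA forms a particle that binds Mdm2, averaged 114 ± 27.9 and 849 ± 40.2 in BCB, and 119 ± 14.5 and 770 ± 106 in BBB embryos (−2.76 and −2.54). Rpl41, a very short basic peptide, changed by −2.02 and −1.84.

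The stalk of the large subunit, which recruits the translation factors that hydrolyse GTP, is built from Rplp0, Rplp1 and Rplp2. Rplp0, its base, gave 1489, 1505, 1399 and 1331 on the BCB arrays with amanitin, against 4214, 4230, 3992 and 4227 untreated, and 1449, 1380, 1414 and 1659 on the BBB arrays with amanitin, against 4225, 4146, 4190 and 4425 untreated. The groups did not overlap, and the change of −1.53 ± 0.07 in BCB and −1.52 ± 0.07 in BBB embryos (limma, adjusted p 3.85e-15 and 4.64e-15) was smaller than the family's median. Rplp2 gave 3088, 2751, 2049 and 1027 on the BCB arrays with amanitin, against 4258, 4197, 4179 and 4043 untreated. On the BBB arrays it gave 2304, 1549, 1746 and 2895 with amanitin, against 4340, 3791, 3752 and 4032 untreated. The treated arrays were spread about 3-fold in BCB embryos, with array 4 the lowest, and none reached the untreated arrays. The change was −1.01 ± 0.22 in BCB and −0.94 ± 0.22 in BBB embryos (adjusted p 0.000265 and 0.000572). Rplp1 has no probe set with its symbol alone.

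**Figure D2:**
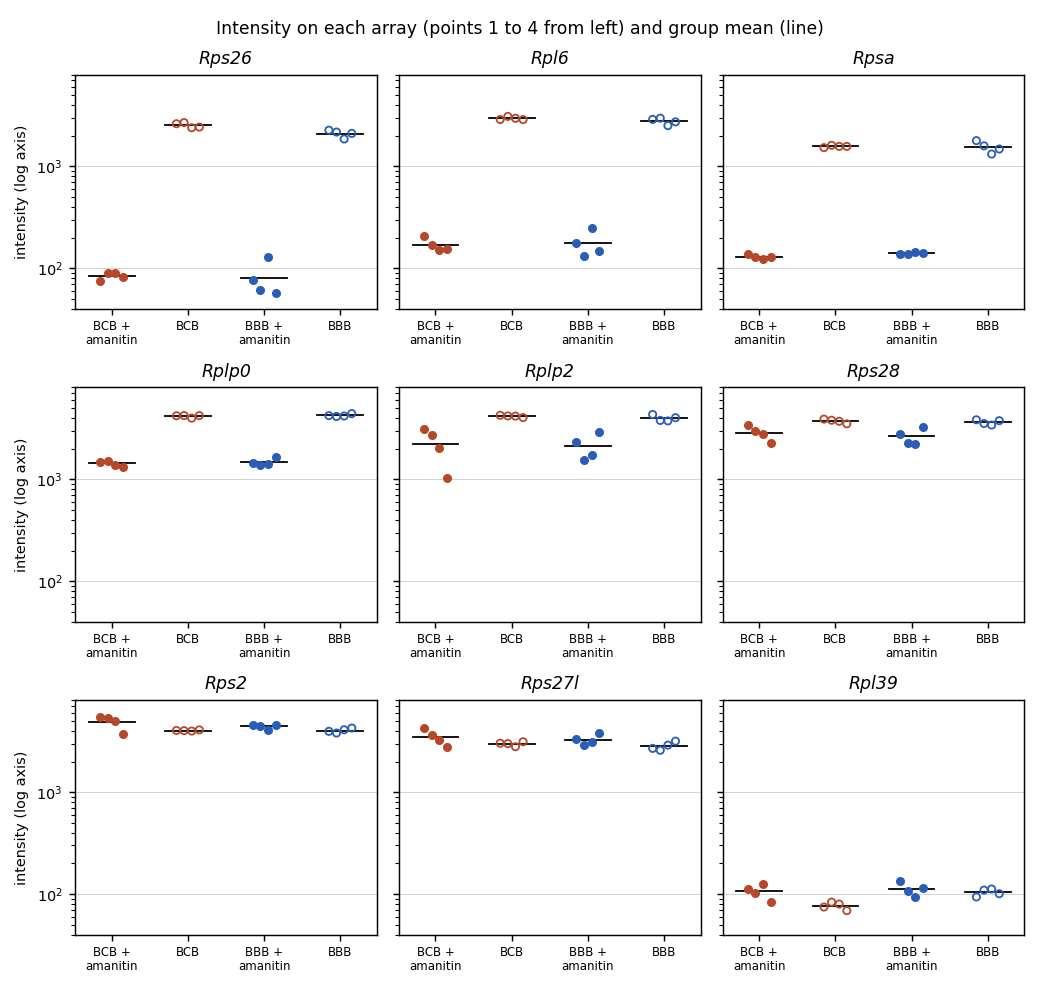
Intensity (log axis) of 9 genes on each array, in BCB embryos with amanitin, untreated BCB, BBB with amanitin and untreated BBB; filled points are amanitin, open points untreated, and the line is the group mean. Rps26, Rpl6 and Rpsa keep under 10% of their untreated mean, Rplp0 about 34%, Rplp2 about 53% and Rps28 72.5% to 76.5%, while Rps2, Rps27l and Rpl39 lie at or above their untreated mean.

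A few transcripts kept more of their signal. Rps28, a small subunit protein near the mRNA exit, gave 3414, 2960, 2770 and 2292 on the BCB arrays with amanitin, against 3905, 3809, 3720 and 3510 untreated. On the BBB arrays it gave 2787, 2261, 2242 and 3266 with amanitin, against 3845, 3535, 3415 and 3770 untreated. No treated array reached an untreated one of its kind, although BCB array 1 and BBB array 4 came near. It kept 76.5% and 72.5% of its mean, changes of −0.40 ± 0.11 and −0.48 ± 0.11 (limma, adjusted p 0.00259 and 0.000477), and its 3 probe sets gave changes between −0.52 and −0.36 over both kinds. Rpl13a kept 59.9% and 60.8% of its mean in its lead probe set (−0.74 and −0.71). The dim probe set of Rpl37 kept 54.8% and 64.7% (−0.71 and −0.53), and with quantile normalization its call in BBB embryos was lost (−0.18, limma adjusted p 0.312). The dim probe set of Rps27 kept 41.1% and 41.5%, which the pseudocount reduced to changes of −0.99 and −0.93.

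Rps2, a small subunit protein at the mRNA entry and a substrate of the arginine methyltransferase Prmt3, was bright in every group. It gave 5505, 5408, 5051 and 3720 on the BCB arrays with amanitin, against 4045, 4025, 3987 and 4094 untreated, and 4568, 4460, 4074 and 4605 on the BBB arrays with amanitin, against 3962, 3813, 4103 and 4269 untreated. The groups overlapped in both kinds, and BCB array 4 with amanitin lay below all untreated arrays. In BCB embryos it passed the test as higher, with a change of 0.27 (95% interval 0.08 to 0.45, limma adjusted p 0.0105), and in BBB embryos it did not, with 0.13 (−0.05 to 0.32, adjusted p 0.195). The direction rests on the scale, since the change was −0.28 in BCB and −0.44 in BBB embryos with quantile normalization, −0.54 and −0.42 scaled to the hybridization controls, and −1.60 and −1.72 scaled to the poly-A controls. Without BCB array 1 with amanitin the call ended (adjusted p 0.0513), and without array 4 of that group the change was 0.40, the highest of those with 1 array left out.

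Rps27l, the paralog of Rps27 that p53 induces in human cells, kept its level too. It gave 4308, 3648, 3266 and 2808 on the BCB arrays with amanitin, against 3030, 3002, 2797 and 3131 untreated, and 3345, 2876, 3080 and 3856 on the BBB arrays with amanitin, against 2694, 2584, 2899 and 3174 untreated. The groups overlapped, and the change was 0.21 in both kinds without passing (limma, adjusted p 0.0764 in BCB and 0.0858 in BBB embryos), with intervals of −0.00 to 0.43 and −0.01 to 0.42. It passed as higher in BCB embryos without array 4 with amanitin (0.31, adjusted p 0.00816), in BBB embryos without untreated array 4 (0.26, 0.0437) or treated array 2 (0.27, 0.0379), and in both kinds with arrays centred on their medians (0.23 and 0.30). With quantile normalization it passed as lower (−0.27 and −0.29), as it did scaled to the hybridization (−0.59 and −0.34) and poly-A controls (−1.66 and −1.64). Its other 2 probe sets gave changes of −0.01 and −0.01 in BCB and of 0.01 and 0.02 in BBB embryos, none of which passed.

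Rpl39, the small protein that lines the exit tunnel, was read from a dim probe set that gave 112.6, 101.8, 126.8 and 84.1 on the BCB arrays with amanitin, against 74.5, 83.3, 79.7 and 68.7 untreated, and 135.0, 107.8, 93.2 and 115.3 on the BBB arrays with amanitin, against 93.6, 109.3, 112.0 and 100.7 untreated. The BCB groups did not overlap, and the BBB groups did. It passed as higher in BCB embryos (0.39, 95% interval 0.10 to 0.68, limma adjusted p 0.0169), where the call ended without array 3 with amanitin (0.0658) and the change turned to −0.29 scaled to the hybridization and to −1.19 scaled to the poly-A controls. In BBB embryos the change was 0.10 (−0.19 to 0.39), or 0.46 with quantile normalization and −0.39 and −1.52 under those scalings. A bright probe set that lists Rpl39 beside another symbol went the other way, at 806 ± 85.9 with amanitin and 4537 ± 268 untreated in BCB embryos and 778 ± 318 and 4634 ± 308 in BBB embryos (SD, n = 4), changes of −2.47 and −2.63.

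Rps6, the small subunit protein phosphorylated by S6 kinase, was likewise read from a dim probe set. It gave 53.9, 41.7, 21.8 and 27.2 on the BCB arrays with amanitin, against 52.7, 54.1, 44.4 and 32.7 untreated, and 20.1, 9.5, 20.6 and 16.6 on the BBB arrays with amanitin, against 42.3, 56.4, 47.6 and 27.1 untreated. The BCB groups overlapped and the BBB groups did not. The change was −0.28 in BCB (interval −0.70 to 0.14, limma adjusted p 0.234) and −0.85 in BBB embryos (−1.27 to −0.43, adjusted p 0.000793). In BCB embryos it passed as lower when scaled to the hybridization controls (−0.85, limma adjusted p 0.000747) or the poly-A controls (−1.55, 8.62e-08). The brightest probe set that lists Rps6 beside another symbol averaged 613 ± 111 with amanitin and 4300 ± 154 untreated in BCB embryos, and 710 ± 172 and 4209 ± 67.9 in BBB embryos, changes of −2.80 and −2.57. The probe set that lists Rps27 beside Rps27rt gave −4.22 and −4.14, where the dim probe set of Rps27 alone gave −0.99 and −0.93. The 2 further probe sets that list Rps2 gave 0.17 and 0.27 in BCB and −0.03 and 0.10 in BBB embryos, close to the probe set of Rps2 alone.

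The 6 tested genes that are duplicated or tissue-restricted paralogs did not stand as a group apart, with medians of −2.10 in BCB and −2.15 in BBB embryos. Rpl7l1, a nucleolar relative of Rpl7, averaged 20.5 ± 8.8 with amanitin and 423 ± 31.7 untreated in BCB embryos, and 26.8 ± 9.0 and 381 ± 78.1 in BBB embryos (−3.62 and −3.22), and all 3 of its probe sets fell. Rpl39l, the paralog of Rpl39 known from mouse testis, averaged 306 ± 66.8 and 1629 ± 58.2 in BCB, and 338 ± 60.3 and 1602 ± 130 in BBB embryos (−2.38 and −2.21). Rpl22l1, the paralog of Rpl22, changed by −1.03 and −1.33. Rps4l changed by −2.72 and −3.11. Rpl3l, known from heart and skeletal muscle, changed by −1.81 and −2.10, with untreated means of only 71.0 and 69.5.

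Probe sets of the same gene mostly moved together. Of 96 tested probe sets, 85 were lower and 4 higher in BCB embryos, against 30.3% and 37.6% of all probe sets tested, and 85 were lower and 2 higher in BBB embryos, against 31.9% and 34.3%. Of 20 genes with several tested probe sets, 6 had probe sets that differed in their call. For Rps18, Rps24, Rps3, Rpl35 and Rpl22 the deviating probe set had the lowest mean signal of its gene. A probe set of Rps18 rose by 0.65 in BCB and 0.86 in BBB embryos at intensities under 40, while its other 3 changed by −4.03 to −2.996. For Rpl22, an RNA-binding protein that mouse T cell development needs, the bright probe set changed by −2.59 and −2.62, and a dim one rose by 0.64 and 0.41. Rps3 had one probe set at 0.57 and 0.24 that did not pass, beside 2 between −3.43 and −3.32. Rps24 had one at 0.34 and −0.18 that did not pass, beside 5 between −2.88 and −2.22. The probe set of Rpl35 with the lowest signal gave −0.49, which passed, and −0.34, which did not, beside 5 between −3.52 and −2.88.

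Rpl13a, known in human cells for leaving the ribosome to silence inflammatory mRNAs, differed among bright probe sets. Its 4 probe sets gave −2.23, −1.58, −0.74 and 0.09 in BCB embryos and −2.18, −1.64, −0.71 and −0.00 in BBB embryos. The probe set that did not pass in either kind gave 1512, 1434, 1332 and 1261 on the BCB arrays with amanitin, against 1304, 1232, 1262 and 1415 untreated, whereas the one with the largest fall gave 558.5, 576.6, 559.1 and 618.3, against 2709, 2762, 2803 and 2823. Of the 106 probe sets, 40 end in _x_at, 28 in _a_at and 3 in _s_at, the endings that mark probes able to bind several or related transcripts. Among the 28 tested probe sets without such a mark, 23 fell in BBB embryos, with a median of −2.01 there and −1.84 in BCB embryos. Of all probe sets tested, marked or not, 31.9% were lower in BBB embryos. The share among all unmarked probe sets was not counted.

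**Figure D3:**
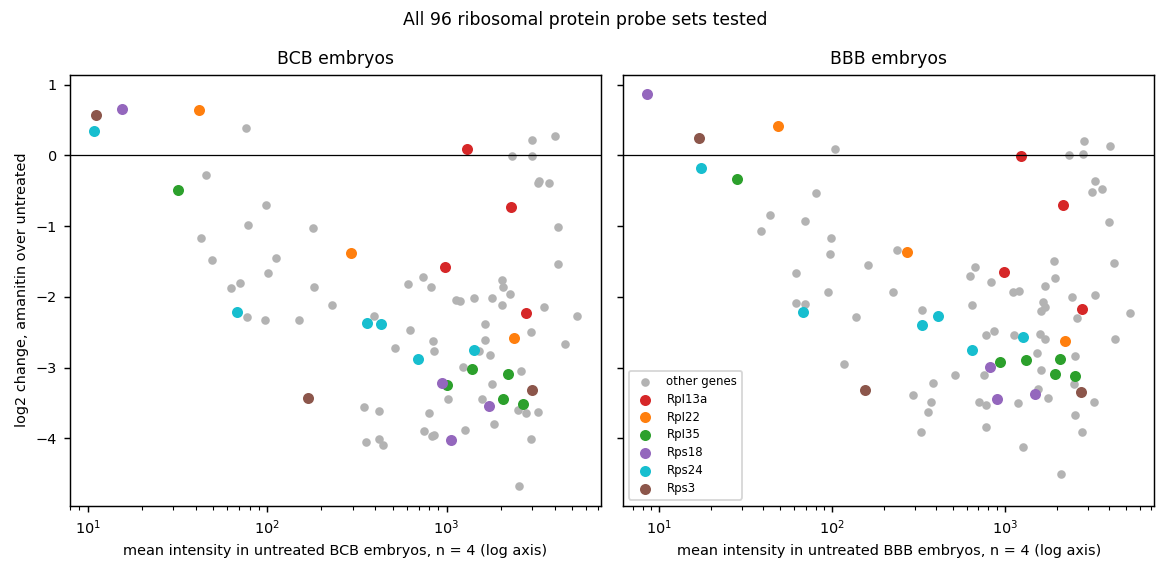
Log2 change with amanitin of all 96 tested ribosomal protein probe sets against their mean intensity in untreated embryos (log axis), BCB left and BBB right; coloured points are the 6 genes whose probe sets differ in their call. In both panels dim probe sets of Rps18, Rpl22, Rps3 and Rpl39 and bright ones of Rps2 and Rps27l lie above 0, as do one of Rps24 (0.34) and one of Rpl13a (0.09) in BCB only.

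The probe sets that list several symbols widen the family. Of 102 tested, 86 were lower and 7 higher in BCB embryos, with a median of −2.51, and 85 were lower and 6 higher in BBB embryos, with a median of −2.38. The background shares of probe sets are those given above. Fau, which encodes a ribosomal protein fused to a ubiquitin-like sequence and falls outside the symbol rule, averaged 220 ± 59.6 with amanitin and 1106 ± 62.3 untreated in BCB embryos (−2.28), and 246 ± 75.7 and 1085 ± 122 in BBB embryos (−2.11).

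The promoters of 8 genes, some with large falls and some that kept more of their signal, chosen after their values were seen, are shown for a view of the pyrimidine-rich start that defines TOP mRNAs. RefSeq promoters on GRCm38.p6 were matched for 42 of the 48 genes. Each line gives 40 bases before and 25 from the annotated start, in the gene's direction. The longest run of C and T is in capitals, the first one where runs were equally long.
Rps26 (chr10:128626482-128626546, minus strand): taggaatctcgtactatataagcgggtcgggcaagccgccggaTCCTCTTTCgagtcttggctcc
Rpl6 (chr5:121204461-121204525, plus strand): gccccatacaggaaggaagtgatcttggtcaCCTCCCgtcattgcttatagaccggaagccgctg
Rps18 (chr17:33955641-33955705, minus strand): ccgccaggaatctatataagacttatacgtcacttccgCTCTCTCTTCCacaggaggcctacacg
Rplp2 (chr7:141447611-141447675, plus strand): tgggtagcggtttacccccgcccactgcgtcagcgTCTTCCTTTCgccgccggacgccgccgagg
Rps28 (chr17:33824538-33824602, minus strand): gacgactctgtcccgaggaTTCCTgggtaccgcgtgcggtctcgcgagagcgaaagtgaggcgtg
Rps27l (chr9:66946046-66946110, plus strand): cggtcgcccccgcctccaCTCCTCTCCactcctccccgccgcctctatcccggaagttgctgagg
Rps2 (chr17:24720023-24720087, plus strand): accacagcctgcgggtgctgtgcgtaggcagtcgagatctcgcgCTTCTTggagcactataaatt
Rpl39 (chrX:37085198-37085262, minus strand): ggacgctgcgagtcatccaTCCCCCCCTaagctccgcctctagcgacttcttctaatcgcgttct
In these windows the longest run was 11 bases in Rps18, 10 in Rplp2, 9 in Rps26, Rps27l and Rpl39, 6 in Rps2 and Rpl6 and 5 in Rps28. Relative to the annotated start it began at −2 in Rps18, −5 in Rplp2, 4 in Rps26 and 5 in Rps2. In Rps27l (−22), Rpl39 (−21), Rps28 (−21) and Rpl6 (−9) it lay wholly before that start, outside the annotated transcript. Rps27l holds another run of the same length, also before the start. Rpl39 holds a slightly shorter run after the start, within the annotated transcript.

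A run of at least 9 pyrimidines on the gene's strand was sought within 40 bases of the start on either side. It was present in 31 of the 42 ribosomal protein promoters (73.8%). The shares were 23.2% of 69 mitochondrial ribosomal protein promoters and 22.6% of 17491 promoters of protein-coding genes. That window reaches further downstream than the printed one. Rpl6 counted as having such a run, at the printed or another annotated start. The letters CCGGAAG, the core bound by ETS family factors, searched on both strands of the 300 bases from 250 before to 50 after the start, were present in 21 of the 42, against 37.7% of the mitochondrial ribosomal protein promoters and 12.9% of all promoters. The letters AAGATGGC, bound by YY1, were in 9.52%, against 17.4% of the mitochondrial ribosomal protein promoters and 3.57% of all. TATAAA was in 14.3%, against 7.25% and 14.8%. The genes with TATAAA were Rpl22, Rpl22l1, Rpl39, Rplp0, Rps2 and Rps28. Their median change was −0.72 in BCB and −0.91 in BBB embryos, against −2.69 and −2.51 for the 36 without it. The search took no account of position, and in the printed Rps2 window the letters lie after the start. Rps26 and Rps18 count as without them, though their printed windows hold the similar letters TATATAAG before the start. Rpl39 was read from a dim probe set, which a bright one that lists another symbol too went against. Genes with the pyrimidine run had medians of −2.06 and −2.10, against −3.32 and −3.11 for the 11 without it. A gene counted as having the letters if any of its annotated starts had them. The count of pyrimidine runs did not tell those before the start from those within the transcript. These are descriptions of letters in a window, without a test.

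Mitochondrial ribosomal proteins, made for a different ribosome, moved less. Of 76 tested, 38 were lower and 16 higher in BCB embryos, against 31.9% and 39.9% of all genes, with a median of −0.42. In BBB embryos 41 were lower and 14 higher, against 33.1% and 37.1%, with a median of −0.45. They ran from Mrpl51, at 120 ± 20.4 with amanitin and 1861 ± 123 untreated in BCB embryos (−3.80), to Mrpl48, at 1669 ± 130 and 271 ± 19.7 (2.55).

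**Figure D4:**
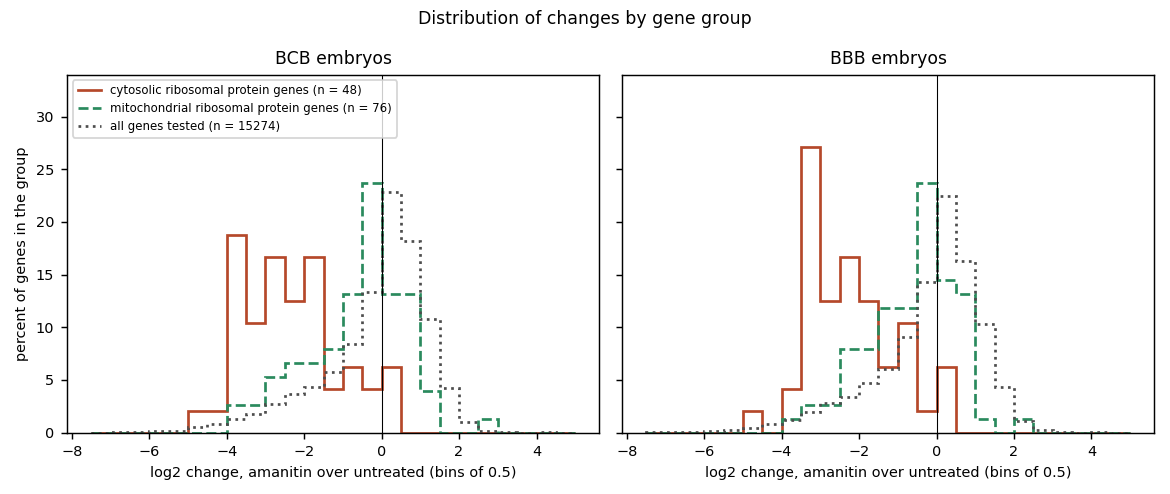
Percent of genes in bins of 0.5 log2 units of the change with amanitin, for the 48 cytosolic and 76 mitochondrial ribosomal protein genes and all 15274 genes tested, in BCB (left) and BBB (right) embryos. The cytosolic genes lie mostly between −4 and −1.5, and all genes are centred near 0.17 in BCB and 0.11 in BBB embryos.

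Other TOP mRNAs, most of them for translation factors, were lower for 15 of 19 tested genes and higher for 3 in each kind, with medians of −1.14 in BCB and −1.10 in BBB embryos. Of all genes, 31.9% were lower and 39.9% higher in BCB embryos and 33.1% and 37.1% in BBB embryos, which is the background of the lists that follow too. Pabpc1, the poly(A)-binding protein, averaged 473 ± 84.3 with amanitin and 4796 ± 171 untreated in BCB embryos (−3.31), and 522 ± 77.4 and 4880 ± 252 in BBB embryos (−3.196). Those that rose, on the deposited scale, were Nap1l1 (1.09 and 1.28), Tpt1 (0.60 and 0.67), which encodes the translationally controlled tumour protein, and the elongation factor Eef1a1 (0.25 and 0.28). Their values were seen before they were named, as for all genes named from the lists of other genes here.

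Chaperones and import factors of ribosomal proteins were lower for 11 of 16 genes and higher for 3 in each kind, with medians of −2.24 in BCB and −2.50 in BBB embryos. Rrs1, which brings the 5S particle to the nascent large subunit, averaged 25.8 ± 21.8 with amanitin and 2969 ± 62.5 untreated in BCB embryos, and 18.4 ± 5.7 and 2796 ± 222 in BBB embryos (−6.29 and −6.36). Grwd1, the chaperone of Rpl3, changed by −4.55 and −4.02, and Tsr2, that of Rps26, by −1.35 and −1.10. Tsr2 was dim, at means of 20.5 with amanitin and 77.8 untreated in BCB, and 25.4 and 76.9 in BBB embryos. At such levels the pseudocount reduces the change. The importins Ipo9 (1.73 and 1.998) and Tnpo1 (1.27 and 1.04) and the histone chaperone Nap1l1 rose on the deposited scale. Factors of ribosome recycling and storage were mixed, with 6 of 9 lower and 2 higher in BCB embryos and 5 lower and 3 higher in BBB embryos. Eif6, which keeps the large subunit from joining, changed by −1.60 and −1.55, and Eif5a rose by 0.52 and 0.50. Among regulators of TOP mRNAs, 5 of 11 were lower and 4 higher in BCB embryos, and 4 lower and 3 higher in BBB embryos, shares near that background. Larp1 changed by −2.67 and −2.89 and Cnbp by −3.29 and −3.43, and Larp4b rose by 0.86 and 1.09.

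The changes of the 2 kinds were nearly the same gene by gene. Across the 48 genes, which are not independent replicates, the change in BCB and the change in BBB embryos had a Pearson correlation of 0.985 and a Spearman correlation of 0.967, and the largest gap was 0.57 log2 units. The 2 changes come from different arrays, all in 1 fit with a shared spread.

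The second comparison asks whether the strain of the maternal pronucleus alters these transcripts. No ribosomal protein gene passed in any of its 3 tests. In untreated embryos, BCB against BBB, 0 of 48 genes passed the limma test, against 0.655% of all genes, and 1 gene had an unadjusted p under 0.05, against 7.06% of all genes. All 48 intervals of the log2 difference lay within ±1, from −0.74 to 0.62 at their widest, and the lowest adjusted p was 0.465. That gene was Rpl39, at 76.5 ± 6.4 in BCB and 104 ± 8.4 in BBB embryos (SD, n = 4), a difference of −0.37 (interval −0.66 to −0.08). By p, Rpl22l1 followed at −0.36 (−0.74 to 0.02, adjusted p 0.766) and then Rps26 at 0.27 (−0.04 to 0.58, 0.815), with all 4 BCB arrays above the 4 BBB arrays. The BCB arrays all lay above the BBB arrays for 2 genes, against 2.86% of all genes, and below for 2, against 3.57%.

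Although no gene passed, 38 of 48 differences were above 0, against 7313 of all 15274 genes. The median was 0.07, against −0.01 for all genes. The 48 genes were read from the same arrays and are not independent replicates. The untreated BBB arrays 3 and 4 had mean levels of 9.89 and 9.94, against 10.09 and 10.06 on arrays 1 and 2 and 10.004 to 10.058 on the BCB arrays. Without BBB arrays 3 and 4, which an earlier analysis of these data had set apart, the median difference was −0.01. Their family means were the lowest of all untreated arrays, so leaving them out had to lower the mean difference. The cause of the difference was not tested.

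With amanitin, BCB against BBB, 0 of 48 genes passed the limma test, against 0.0786% of all genes, and 8 had an unadjusted p under 0.05, against 10.7%. The median difference was −0.03, against 0.02 for all genes, and 47 intervals lay within ±1. Rps6 had the lowest adjusted p, at 0.238, with 36.2 ± 14.5 in BCB and 16.7 ± 5.1 in BBB embryos, a difference of 0.65 (interval 0.22 to 1.07), and its BCB arrays all lay above its BBB arrays, against 2.01% of all genes, while Rpsa was the 1 gene whose BCB arrays all lay below, against 1.65%. Rps19 differed by −0.45 (−0.75 to −0.15, adjusted p 0.245) and Rpl10a by −0.26 (−0.44 to −0.07, 0.293). Among the probe sets that list several symbols, 1 of 102 passed as lower in BCB embryos, against 0.0313% of all probe sets. It gave 160.9, 140.4, 137.4 and 133.1 on the BCB arrays, against 234.4, 196.4, 199.5 and 241.1 on the BBB arrays, without overlap (−0.55, limma adjusted p 0.0343), and was singled out after its values were seen.

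The interaction, which is the change with amanitin in BCB embryos less the change in BBB embryos, passed for 0 of 48 genes in the limma test, against 0.255% of all genes, and 5 genes had an unadjusted p under 0.05, against 8.05%. The estimates lay between −0.54 and 0.57, with a median of −0.13, and 47 intervals lay within ±1. Without untreated BBB arrays 3 and 4 the median was −0.03, but leaving out those low arrays had to raise the mean interaction. Rpl10a had the lowest adjusted p (−0.36, interval −0.62 to −0.10, adjusted p 0.383), followed by Rps19 (−0.54, −0.96 to −0.12, 0.429) and Rps3a1 (−0.42, −0.75 to −0.09, 0.438). Rps6, which on the deposited scale passed in BBB and not in BCB embryos, had an interaction of 0.57 (−0.02 to 1.17, adjusted p 0.611). The missed thresholds do not show that the kinds were alike, and the intervals give the sizes that remain possible.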

How the data were processed

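RNA was isolated from two-cell embryos with a Picopure kit, labelled with biotin by an ENZO kit and hybridised to 1-colour arrays, per the labels' protocols. The deposited values are linear intensity, which the authors scaled per array, as the values themselves show, and which were not quantile normalized. The mean without the highest and lowest 2% of values is 150 on every array. The plain mean is 206.5 to 214.2 on untreated arrays and 236.5 to 245.9 with amanitin. Neither software nor scaling method is named in those sources. No per-sample column was left unused (0).

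Probe sets were named through the platform annotation: 34945 have 1 symbol, 932 several and 9160 none. Values were taken as log2(intensity + 16). The tested probe sets reached the 40th percentile of the array on 4 or more of 16 arrays, which left 31953 probe sets and 15274 genes. Each gene was represented by the tested probe set of highest mean over all 16 arrays, its lead probe set. limma 3.58.1 under R 4.3.3 fitted 1 model to all arrays, each group having its own mean, followed by trended empirical Bayes moderation and Benjamini-Hochberg adjustment over all 31953 probe sets; a call is an adjusted p under 0.05. Simulated data with 200 known changes were used to test the procedure. Background shares are over the 15274 genes, or the probe sets where stated. Precision is limited by 4 arrays per group: the median standard error over the family was 0.136 for a difference between 2 groups.

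Genes were named by rule: the 8 largest falls, the 5 smallest falls or rises, all that rose or did not pass, the brightest 3, the 3 smallest p per strain contrast, genes whose probe sets differ in their call, and a set of well-known members. The members, lists, alternatives and this rule were chosen with earlier results of these data known. Replicate numbers did not pair the arrays, and no arrays held identical values.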

Additional observations from a re-analysis of the deposited data

Results flagged for a closer look

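In groups of 4 arrays, an array was singled out where its distance to the nearest other array was above Dixon's 95% critical share of the group's range. Of 132 such groups among the named genes and the family mean, 8 had such an array, and chance flags about 1 in 20. Rpl11 gave 72.8 on BCB array 4 with amanitin, against 120.5 to 132.2 on the others. Rpl22 gave 264 on BBB array 2 with amanitin, against 370.2 to 379. Among untreated BCB arrays, Rpl7 gave 2013 on array 3, against 1765 to 1803, Rplp0 gave 3992 on array 3, against 4214 to 4230, and Rps24 gave 1563 on array 1, against 1377 to 1394. Among untreated BBB arrays, Rpl35 gave 2276 on array 3, against 2622 to 2655, and Rps27 gave 86.2 on array 2, against 61.4 to 64.5. The mean log2 level of the family was 10.004 on untreated BCB array 4, against 10.054 to 10.058 on the others.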

How the results depend on the processing

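The counts of genes called with amanitin were within 1.5 times under every alternative run but one. With the probe sets marked _s_at, _x_at or _a_at left out, 24 genes were tested. Of these, 23 were called in BCB embryos (21 lower and 2 higher) and 22 in BBB embryos (21 lower and 1 higher). Fewer genes tested accounts for the lower counts, and the share of all genes called in that run was not counted. With 1 array left out at a time, 45 to 47 genes were called in BCB and 45 to 46 in BBB embryos. The counts of 0 for the strain contrasts and the interaction stayed 0 under every alternative run. Scaling moved the median of all genes, to −1.13 in BCB and −1.18 in BBB embryos with the poly-A controls and to −0.37 and −0.25 with the hybridization controls; the family's median relative to it was −3.11 and −2.92 with the poly-A, −2.86 and −2.57 with the hybridization controls, and −2.62 and −2.38 as deposited. All 48 genes were lower with the poly-A controls in both kinds, and 47 and 48 with the hybridization controls. The share of all genes lower under these scalings was not counted, and their median fell too. The replicate numbers did not pair the arrays (24 same-numbered pairs, correlations from −0.087 to 0.107), and with the replicate number as a block 46 and 45 genes were called, as without it. Directions turned for 4 genes. Rps2 was at −0.276, −0.538 and −1.604 in BCB and −0.441, −0.42 and −1.721 in BBB embryos with quantile normalization, the hybridization and the poly-A controls. Rps27l was at −0.272, −0.592 and −1.655 in BCB and −0.292, −0.344 and −1.643 in BBB embryos in the same order. Rpl39 was at −0.292 and −1.187 in BCB and −0.387 and −1.521 in BBB embryos with the hybridization and poly-A controls. Rps18 was at 0.652 and 0.865 with the marked probe sets left out, which leaves its dimmest one. The cause of the other turns was not tested. Of 2292 values for single genes under an alternative, 18 turned, 17 lost and 12 gained a call. Intensities near the background limit the falls of dim genes, so the size of large falls depends on the pseudocount: Rps26 changed by −4.90 in BCB embryos with 1 and by −4.14 with 64.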
